A study of Mus musculus with 44 samples.

Results

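Single Tomato-positive cells from mouse hindlimb muscle were compared by their level of Pi16, the gene of a peptidase inhibitor in the CAP protein family. The cells were chosen by the measured value of Pi16 itself. A cell was called Pi16-high where the deposited log2 value of Pi16 was 5 or more and Pi16-low where it was under 5, which gave 25 Pi16-high and 19 Pi16-low cells of 44 in all. Both classes came from the same group of adult C57BL/6 mice of the genotype Prrx1-CreERT;Tomato, given daily doses of 2 mg tamoxifen per mouse on 3 days. In these mice a tamoxifen-dependent Cre recombinase under Prrx1 control switches on a red fluorescent reporter, so every cell compared had carried the label, and cells that did not activate it were not sampled. Muscle was digested with collagenase and dispase, labelled cells were sorted and then picked singly under a fluorescence microscope. No animal is named for any cell, so all 44 stand as 1 sample. Cells are not replicates, no test was made, and each value describes these 44 cells only. The split was made on a measured value, so the Pi16 values themselves are no finding.

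Fibroblasts of many mouse tissues fall along a range between a Pi16 and Dpp4 type, often found in connective tissue sheaths and around larger vessels and regarded as a progenitor-like state, and types specialised for a tissue, marked in muscle by genes such as Cxcl14, Apod and Lum. In muscle these cells largely correspond to the fibro-adipogenic progenitors, which lay down matrix, feed muscle stem cells with secreted factors and can become adipocytes. Prrx1 is a homeobox gene of limb mesenchyme, active in this lineage.

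The deposited values are values of FPKM, the fragments of a gene divided by its transcript length and by the mapped total. They are read here as log2 of FPKM + 1 and come close to 1 distribution in all cells. Each cell held at least 1540 rows at 5 or more, which is an FPKM of 31 or more, and FPKM totals were 579623 to 579912. Depth is therefore unknown, and a level is a rank within its cell more than an amount of RNA. Earlier results of these data found low values shared between particular libraries. The correlations here were taken over genes at all levels. Average linkage, cut at a rank correlation of 0.545, put the cells into 7 blocks of linked libraries. Of these, 6 held 7 cells and 1 held the pair of cells 30 and 44. Links at 0.545 or more also crossed blocks: cells of the larger blocks had 8 or 9 linked cells, cell 44 had 3 and cell 30 had 2. A value under 5 in a cell may contain signal from a linked library, which was not tested. The levels below are given with the number of cells at 5 or more.

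Pi16 (ENSMUSG00000024011, chromosome 17, 29317680 to 29330593, plus strand, GRCm38) ranged over log2 values of 5.48 to 11.65 in the Pi16-high cells, with a median of 9.73, and over 1.67 to 4.92 in the Pi16-low cells, with a median of 3.87. Just inside the threshold lay cells 17, 41 and 40 at 5.48, 6.03 and 6.77, and just outside it cells 7, 1 and 30 at 4.92, 4.56 and 4.50. The Pi16-high cells were themselves uneven: a total of 16 held values of 9.47 or more, and 9 held values of 5.48 to 8.27. No Pi16-low cell was at 0. The FPKM of Pi16 in a Pi16-low cell was 0.106% to 1.27% of that in its highest linked cell, in or outside its block. The median was 0.535%, and whether any Pi16-low cell made the transcript was not tested. Both classes were present in all 7 blocks. Block 4 held 6 Pi16-high cells and 1 Pi16-low cell, block 3 held 5 Pi16-high and 2 Pi16-low cells, and block 2 held 4 Pi16-high and 3 Pi16-low cells. Blocks 1, 5 and 7 held 3 Pi16-high and 4 Pi16-low cells each, and block 6 held 1 of each.

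**Figure D1:**
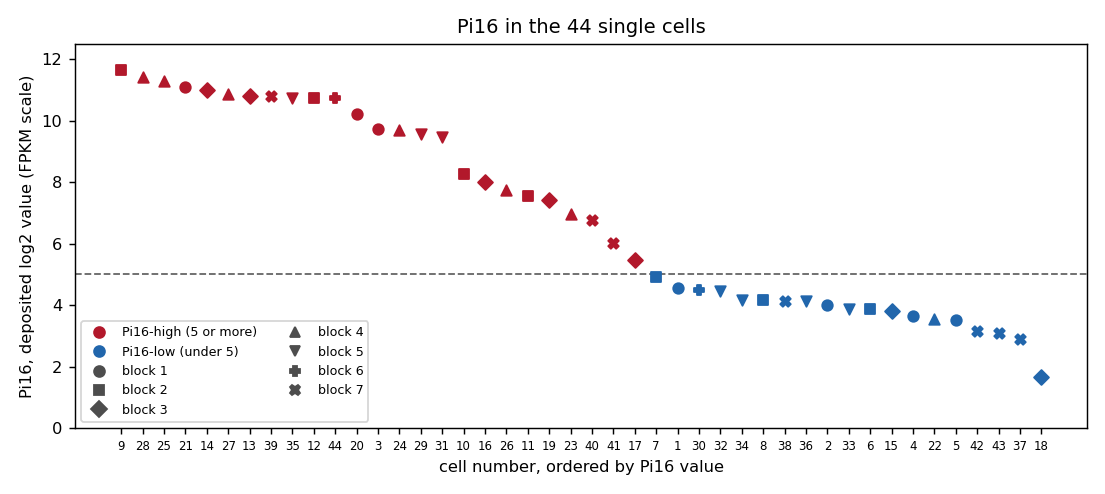
Deposited log2 value of Pi16 (y axis) in each of the 44 cells (x axis, cell numbers ordered by the value), red for Pi16-high and blue for Pi16-low cells, with a marker shape for each block of linked libraries and a dashed line at 5. The values run down from 11.65 to 9.47 in 16 cells, continue at 8.27 to 5.48 in 9 and level off below 4.92 in the rest, and every block has cells of both colours.

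The stretches of 250 bases before the RefSeq start sites of Pi16 and of the pair of genes with the largest excess in Pi16-high cells are shown because Pi16 set the split and these genes lead the comparison. They are given on the sense strand, GRCm38.p6, with matches to CCAAT or GGGCGG on either strand in capitals. The Pi16 window lies within the longer GENCODE span of the gene given above.
Pi16, chr17:29318632-29318881, plus strand: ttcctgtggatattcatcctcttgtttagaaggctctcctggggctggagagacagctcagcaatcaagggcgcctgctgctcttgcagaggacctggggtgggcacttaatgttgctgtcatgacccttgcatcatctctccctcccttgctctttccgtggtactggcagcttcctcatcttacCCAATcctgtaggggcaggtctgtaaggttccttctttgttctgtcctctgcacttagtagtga
Efhd1, chr1:87264103-87264352, plus strand: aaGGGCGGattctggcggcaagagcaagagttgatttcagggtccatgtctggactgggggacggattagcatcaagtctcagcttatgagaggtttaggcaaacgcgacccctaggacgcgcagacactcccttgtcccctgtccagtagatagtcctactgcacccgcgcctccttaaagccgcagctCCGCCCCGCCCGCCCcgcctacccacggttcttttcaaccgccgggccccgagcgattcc
Sema3c, chr5:17574566-17574815, plus strand: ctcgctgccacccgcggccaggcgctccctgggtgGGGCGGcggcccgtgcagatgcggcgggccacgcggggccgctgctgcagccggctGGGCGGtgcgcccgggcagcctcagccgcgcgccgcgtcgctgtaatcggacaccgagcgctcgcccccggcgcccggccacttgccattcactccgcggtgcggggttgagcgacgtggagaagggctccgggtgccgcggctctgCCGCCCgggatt
The Pi16 window held 1 match, to CCAAT. The Efhd1 window held 4 matches to GGGCGG, of which 3 overlap in 1 run, and the Sema3c window held 3. The share of 32851 RefSeq windows of this length with the first motif was 33.8%, and with the second 32.7%. The letters TATAAA stood in 12.4% of windows and in none of the 3. The letters TGANTCA stood in 6.75% and likewise in none of the 3. A match describes letters and is no evidence of binding.

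Both classes held fibroblast genes at high values. Of 16 measured fibro-adipogenic progenitor or fibroblast genes, the Pi16-high cells held 9 to 15 at 5 or more, with a median of 12, and the Pi16-low cells 7 to 15, with a median of 13. The fewest were in cells 8 and 36, both Pi16-low. Ly6a (Sca-1), Col1a2 and Serping1 were at 5 or more in all 25 Pi16-high and all 19 Pi16-low cells, and Pdgfra, the receptor used to define fibro-adipogenic progenitors, in 15 Pi16-high and 16 Pi16-low cells. Markers of other stromal cells were present in some cells of both classes. At least 3 of 12 mural or smooth muscle markers were held by 2 Pi16-high and 7 Pi16-low cells, among them cell 36 with 11 and cell 30 with 9, both Pi16-low. Their summed FPKM ranged over 9.88 to 2085 in Pi16-high and 3.16 to 32790 in Pi16-low cells. At least 3 of 8 tenocyte markers were held by 5 Pi16-high and 3 Pi16-low cells. Cells 17 and 40, which lie just inside the Pi16 threshold, held 7 and 6, and cell 8, which is Pi16-low, held 6. Their summed FPKM ranged over 1.29 to 23467 in Pi16-high and 8.99 to 14066 in Pi16-low cells. At least 3 of 12 myofibre markers were held by 4 Pi16-high and 6 Pi16-low cells, with summed FPKM of 14.99 to 6332 in Pi16-high and 11.3 to 2978 in Pi16-low cells. Endothelial and macrophage markers were near absent: no Pi16-high cell held any of the 10 endothelial or 11 macrophage markers at 5 or more. Among Pi16-low cells, cell 22 held Fabp4 and cell 4 held Cd68. Lyz2, Csf1r, C1qa, Cldn5 and Emcn were at 0 in 42 cells and at or below 0.0013 in the others. Of 6 satellite cell markers the Pi16-high cells held at most 1 and the Pi16-low cells at most 2, and of 4 glial markers at most 1 in either class. Of the marker genes that passed the filter described below, Myl9 was the single one of 6 mural markers counted as lower, and 0 of 6 tenocyte, 9 myofibre and 1 satellite cell markers were counted. Their median differences were -1.54, 0.43, -0.37 and 0.79 in this order, and no endothelial, macrophage or glial marker passed. The part of these other cell types in the differences below was not tested.

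Genes were compared by the difference of mean log2 values, Pi16-high minus Pi16-low. A gene was counted where this difference was 2 or more in size and the share of cells at 5 or more differed by at least 25 percentage points in the same direction. Of 5101 genes at 5 or more in at least 4 cells, 53 (1.04%) were higher and 42 (0.823%) were lower in Pi16-high cells, Pi16 itself left out. A gene at 5 or more in 1 class only passed this filter through that class, so the direction of its difference in share was fixed beforehand. The median difference over these 5101 genes was 0.02, with 2604 differences above 0 and 2497 below. The spread between cells was large beside the differences: for the 53 genes the median SD over cells was 2.78 in Pi16-high and 1.96 in Pi16-low cells. With values under 5 set to 5, which shrinks any difference with a low side under 5, the counts were 0 higher and 5 lower. The 5 were Penk, Tmem176b, Bgn, Apoe and Il11ra1. Leaving out block 2, 5 or 7 gave 72, 66 or 69 lower genes.

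**Figure D2:**
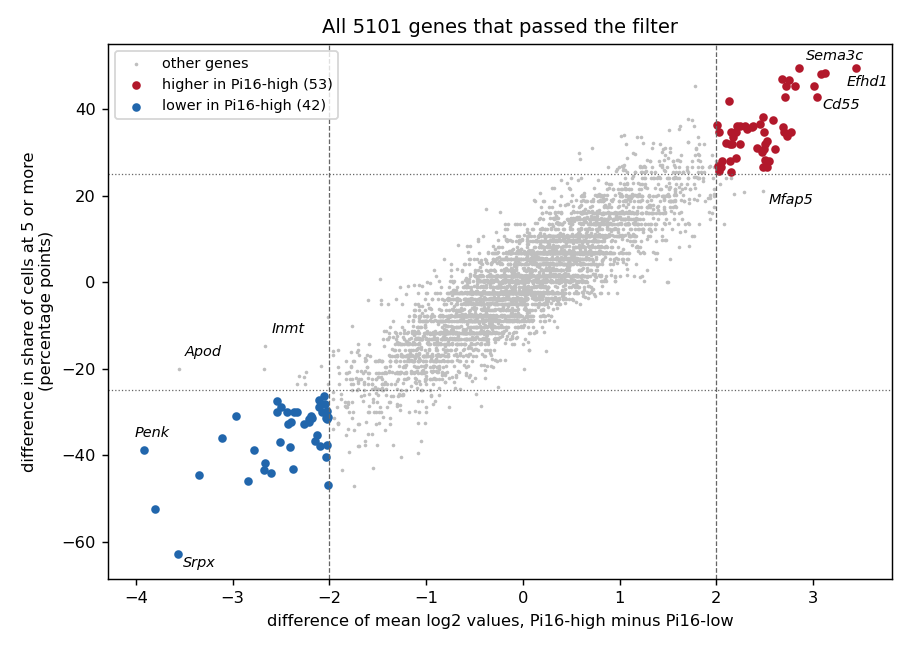
Difference of mean log2 values (x axis) against the difference in the share of cells at 5 or more (y axis, percentage points), Pi16-high minus Pi16-low, for the 5101 genes that passed the filter, with dashed and dotted lines at the size and share rules. The 53 genes counted as higher (red) and the 42 counted as lower (blue) sit at the ends of a continuous cloud, and Apod, Inmt and Mfap5 pass the size rule with a small difference in share.

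Efhd1, Sema3c and Cd55, 3 of the 4 genes with the largest positive differences, are known from Pi16 and Dpp4-type fibroblasts of other tissues. They are on the list of such genes described below, which was chosen with earlier results of these data known. Among the 12 genes with the largest positive differences, Tek was the only further member of that list. Efhd1 (chromosome 1, 87264363 to 87310839, plus strand), which codes for a calcium-binding protein of mitochondria, had the largest difference. Its log2 values ran from 1.39 to 9.06 in Pi16-high cells, with a median of 6.67, and from 0.12 to 6.23 in Pi16-low cells, with a median of 1.16. It stood at 5 or more in 15 of 25 Pi16-high and 2 of 19 Pi16-low cells, and the ranges of the classes overlapped. The difference of means was 3.45, with means of 5.35 ± 2.82 in Pi16-high and 1.90 ± 1.78 in Pi16-low cells (SD over cells). Efhd1os, annotated within the span of Efhd1 on the other strand, had a difference of 2.71. The libraries are not stated to keep strand, so reads of the pair cannot be told apart.

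Sema3c (chromosome 5, 17574281 to 17730268, plus strand), a secreted guidance protein, had values of 2.21 to 10.79 in Pi16-high cells, with a median of 7.72, and 0.53 to 9.38 in Pi16-low cells, with a median of 3.39. It stood at 5 or more in 20 Pi16-high and 6 Pi16-low cells, and the difference was 3.13, or 1.86 with the Pi16 threshold at 4. Cd55 (chromosome 1, 130439027 to 130462744, minus strand), the decay-accelerating factor that limits complement at the cell surface and a sorting marker of Pi16-type fibroblasts, had values of 0.59 to 9.77, with a median of 6.72, in Pi16-high cells and 0.08 to 9.30, with a median of 1.96, in Pi16-low cells. It was at 5 or more in 16 Pi16-high and 4 Pi16-low cells, with a difference of 3.04. For both genes the medians were apart while single Pi16-low cells reached the upper range. Cd55b, a close copy of Cd55 to which reads could be assigned in part, had a difference of 1.25.

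The remaining genes with the largest positive differences had mixed roles. Pcsk6, a protease that activates growth factor precursors, was at 5 or more in 16 Pi16-high and 3 Pi16-low cells, with a difference of 3.08. Il33, an alarmin cytokine of stromal cells, was at 5 or more in 14 Pi16-high and 2 Pi16-low cells and had a median of 5.52 in Pi16-high and 2.44 in Pi16-low cells. Dbn1, the actin-binding protein drebrin, was at 5 or more in 15 Pi16-high and 2 Pi16-low cells, and Zyx, an adaptor of focal adhesions, in 14 Pi16-high and 2 Pi16-low cells. Adamtsl4, a secreted protein that binds fibrillin microfibrils, was at 5 or more in 14 Pi16-high and 2 Pi16-low cells, with a difference of 2.82. Tek, the angiopoietin receptor known mainly from endothelium, was at 5 or more in 13 Pi16-high cells and 1 Pi16-low cell, whereas Pecam1 stayed at or under 1.31 in Pi16-high and 1.34 in Pi16-low cells. Pgd, an enzyme of the pentose phosphate pathway, had a difference of 2.78, and Fndc1 of 2.73, which was just under 2 (1.996) without block 4.

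**Figure D3:**
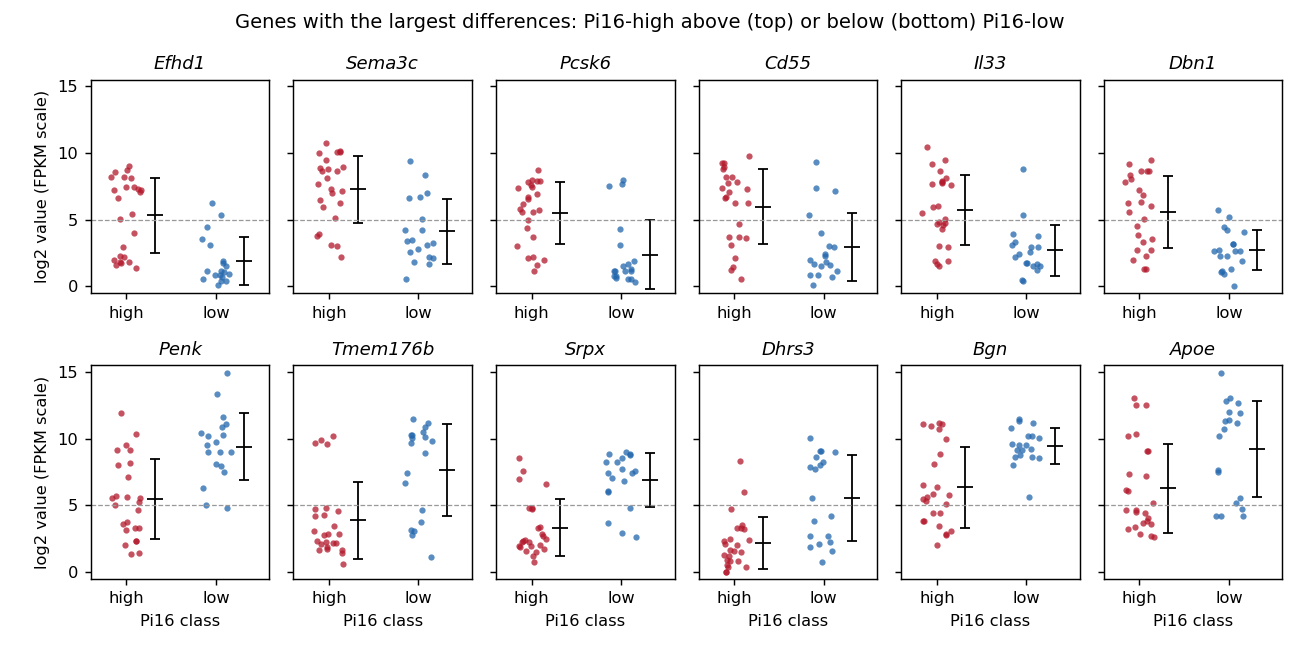
Log2 values of 12 genes in each cell (y axis), Pi16-high cells left in red and Pi16-low cells right in blue, with the mean and SD over cells as black bars and a dashed line at 5. In the top row most Pi16-low cells lie under the line, in the bottom row the means of Pi16-high cells lie below those of Pi16-low cells, and in all 12 genes the classes overlap.

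The genes lower in Pi16-high cells were led by Penk (chromosome 4, 4133531 to 4138819, minus strand), the precursor of enkephalin opioid peptides. Its values ran from 1.37 to 11.94 in Pi16-high cells, with a median of 5.26, and from 4.84 to 14.95 in Pi16-low cells, with a median of 9.54. It was at 5 or more in 14 of 25 Pi16-high and 18 of 19 Pi16-low cells, and the difference was -3.92. Nearly every Pi16-low cell was thus high in Penk, and the Pi16-high cells were spread from low to high values. Srpx (chromosome X, 10037977 to 10117709, minus strand), a sushi-repeat protein, was at 5 or more in 4 Pi16-high and 15 Pi16-low cells, the largest difference in share among the 12 lower genes described here, with medians of 2.39 in Pi16-high and 7.45 in Pi16-low cells. Tmem176b, a transmembrane protein gene, was at 5 or more in 4 Pi16-high and 13 Pi16-low cells, with a difference of -3.80. Tmem176a, which overlaps Tmem176b in part on the other strand and may share reads with it, had a difference of -2.50.

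Dhrs3, which reduces retinal to retinol, was at 5 or more in 2 Pi16-high and 10 Pi16-low cells, with a difference of -3.34. Bgn, the small proteoglycan biglycan, was at 5 or more in 16 Pi16-high and in all 19 Pi16-low cells, with values of 2.01 to 11.20 in Pi16-high and 5.62 to 11.48 in Pi16-low cells. Apoe, the lipid carrier apolipoprotein E, was at 5 or more in 12 Pi16-high and 15 Pi16-low cells, with medians of 4.67 in Pi16-high and 10.75 in Pi16-low cells. Il11ra1, the interleukin-11 receptor chain, was at 5 or more in 14 Pi16-high and 18 Pi16-low cells, and Fbln1, a matrix protein of the fibulin family, in 8 Pi16-high and 14 Pi16-low cells. Atf7ip, Fubp1 and Prrc2c had differences of -2.84, -2.67 and -2.61, and with the Pi16 threshold at 4 that of Atf7ip was -0.63. Myl9, a myosin light chain of smooth muscle, had a difference of -2.54, and of -1.90 without block 2. Without the 9 Pi16-high and 11 Pi16-low cells that held at least 3 mural, tenocyte or myofibre markers, the difference of Myl9 was 0.12. Myl9 is itself a mural marker used to choose those cells, so a smaller difference was likely beforehand and is a description only. The other 11 lower genes had differences of -4.58 to -1.83 without those cells, and the 12 higher genes of 2.67 to 4.41.

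A further 7 genes were past the size rule and higher in Pi16-high cells without the required difference in share, and 11 were lower. Several were abundant genes that most cells held at 5 or more. Apod, the lipid carrier apolipoprotein D (chromosome 16, 31296192 to 31314808, minus strand), had values of 3.23 to 13.05 in Pi16-high cells, with a median of 8.07, and 7.13 to 14.95 in Pi16-low cells, with a median of 11.76, a difference of -3.56. All Pi16-low cells were high in Apod and the Pi16-high cells were spread. Inmt, an amine methyltransferase, differed by -2.66, Sparcl1, a matrix glycoprotein, by -2.68, Cxcl12, a chemokine of stromal niches, by -2.31, and Mgp, an inhibitor of calcification, by -2.02. On the other side Mfap5, a microfibril protein, was at 5 or more in 25 Pi16-high and 15 Pi16-low cells and differed by 2.48, and Pcolce2, an enhancer of procollagen processing, by 2.29.

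Of 30 genes listed for Dpp4 and Pi16-type fibroblasts, 24 passed the filter, and 9 of these were higher and 0 lower in Pi16-high cells. The median difference was 1.90, with 23 of 24 differences above 0, beside 2604 of all 5101 genes. Of all 5101 genes, 1.04% were higher and 0.823% lower. With values under 5 set to 5, 0 members of the list were counted as higher. The list was chosen with earlier results of these data known, so its direction is no independent evidence. Besides Efhd1, Sema3c, Cd55 and Tek, the 9 were Uchl1, a deubiquitinase, in 9 Pi16-high and 0 Pi16-low cells at 5 or more, Scara5, a ferritin receptor, Gfpt2, an enzyme of hexosamine synthesis, Efemp1, a fibulin, and Ackr3, an atypical receptor for CXCL12. Scara5 was at 5 or more in 20 Pi16-high and 9 Pi16-low cells, Gfpt2 in 22 Pi16-high and 10 Pi16-low cells and Efemp1 in 19 Pi16-high and 9 Pi16-low cells. For Ackr3 this held in 7 Pi16-high and 0 Pi16-low cells. Uchl1 and Ackr3 passed the filter through Pi16-high cells alone, so the direction of their difference in share was fixed beforehand. Dpp4 itself was at 5 or more in 10 Pi16-high and 5 Pi16-low cells, with a difference of 1.51 and the positive sign in only 3 of 7 blocks. Anxa3 differed by 1.93, Cd248, a stromal surface protein, by 1.61 and Ly6c1 by 0.49. Pi16-high cells held 4 to 21 of the 29 measured genes at 5 or more, with a median of 17, and Pi16-low cells 4 to 15, with a median of 9.

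The list of 25 Cxcl14 and Apod-type genes had 22 that passed the filter, of which 0 were higher and 3 lower, namely Penk, Apoe and Gdf10, a ligand of the bone morphogenetic protein family. The median difference was -0.90, with 16 of 22 below 0, beside 2497 of all 5101 genes. Of all 5101 genes, 1.04% were higher and 0.823% lower. With values under 5 set to 5, 2 lower members remained. This list too was chosen with earlier results of these data known. Pi16-high cells held 3 to 19 of 24 measured genes at 5 or more, with a median of 11, and Pi16-low cells 7 to 19, with a median of 14. The members were not alike. Cxcl14 was at 5 or more in 6 Pi16-high cells and 1 Pi16-low cell, with a difference of 1.04. Lum, the collagen-binding proteoglycan lumican, was at 5 or more in 18 Pi16-high and 14 Pi16-low cells, with a difference of -0.72. Col15a1 differed by 0.24.

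The Pi16-high cells with more and with less Pi16 are set beside the Pi16-low cells here. The boundary at 9, which lies in the gap between 8.27 and 9.47, was chosen after the values were seen. Cells with Pi16 of 9 or more held a median of 19 Dpp4 and Pi16-type genes at 5 or more (range 9 to 21, 16 cells), cells with 5 to 9 held 11 (4 to 15, 9 cells) and Pi16-low cells 9 (4 to 15, 19 cells). For the Cxcl14 and Apod-type genes the medians were 11, 15 and 14 in the same order. The 9 middle cells thus lay near the Pi16-low cells on both lists. The counted genes were chosen for their difference between Pi16-high and Pi16-low cells, so the order of their means is a description only. Cd55 had means of 7.18 in the upper, 3.90 in the middle and 2.96 in the Pi16-low cells, and Efhd1 of 6.43, 3.42 and 1.90. Lama4 had means of 6.24, 6.08 and 3.50. Tmem176b had means of 3.76 in the upper, 4.10 in the middle and 7.69 in the Pi16-low cells, and Bgn of 5.31, 8.20 and 9.46. Exceptions were visible in single cells: cell 12, with Pi16 at 10.73, held 9 Dpp4 and Pi16-type and 15 Cxcl14 and Apod-type genes, and cells 22 and 38, with Pi16 at 3.54 and 4.14, held 15 Dpp4 and Pi16-type genes each.

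**Figure D4:**
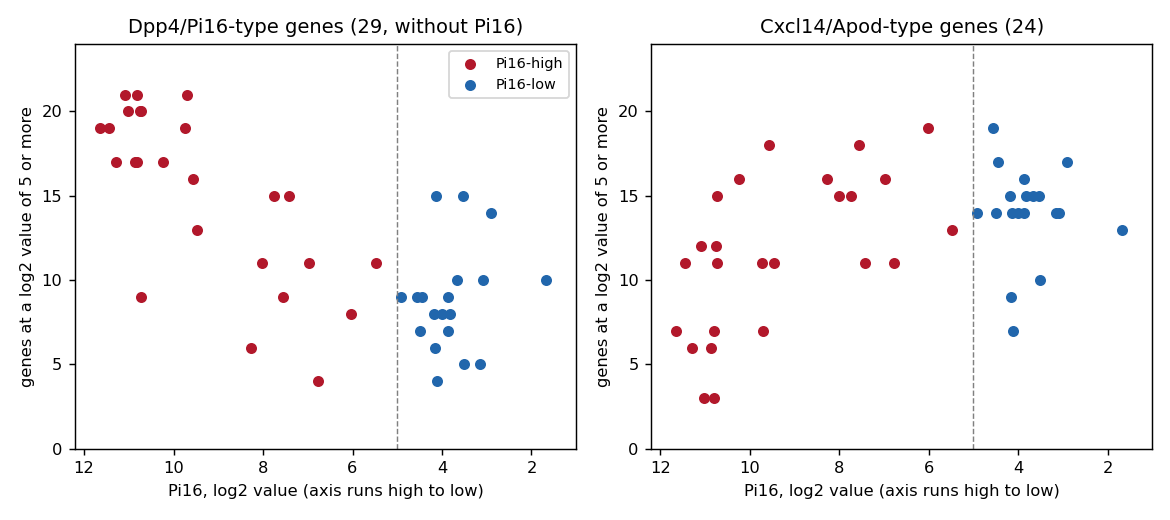
Number of genes at a log2 value of 5 or more per cell (y axis) against the Pi16 value (x axis, high to low), for 29 Dpp4 and Pi16-type genes without Pi16 (left) and 24 Cxcl14 and Apod-type genes (right), red for Pi16-high and blue for Pi16-low cells. On the left the cells with Pi16 of 9 or more hold 9 to 21 genes and all others at most 15, and on the right the 4 cells with the fewest genes, 3 to 6, are Pi16-high cells.

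Matrix genes were counted singly, beside 1.04% higher and 0.823% lower of all 5101 genes. Of these 5101, 2604 had differences above 0 and 2497 below. Such small counts in short lists are no result about a list. Of 16 fibro-adipogenic progenitor or fibroblast genes Fbln1 was lower and 0 were higher, with 8 differences above 0 and 8 below. Of 18 elastic fibre and microfibril genes that passed the filter, Efemp1 was higher and Fbln1 lower, with a median difference of 0.68 and 14 of 18 above 0. Of 17 fibrillar and associated collagen genes 0 were higher and 0 lower, with a median difference of 0.03, and Col3a1 differed by -0.63. Among 15 basement membrane genes, Lama4, a laminin chain of vessels and muscle, was higher, at 5 or more in 17 Pi16-high and 4 Pi16-low cells, and 0 were lower, with a median difference of -0.19. Bgn was the single lower gene of 9 small leucine-rich proteoglycans, 7 of which had differences below 0, and the median was -0.43. Of 19 matrix proteases and inhibitors, Adamts5, which cleaves aggrecan and versican, was higher, at 5 or more in 12 Pi16-high and 2 Pi16-low cells, and the median difference was 0.21. Fn1 (fibronectin), at 5 or more in 21 Pi16-high and 8 Pi16-low cells, and Sema3c were the higher genes among 22 adhesion and guidance genes, with a median difference of 0.28. Of 7 hyaluronan and lubricin genes 0 were counted, with a median difference of 0.34, and lubricin, Prg4, differed by -1.97.

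Complement and cytokine genes had counted members in both directions, beside 1.04% higher and 0.823% lower of all 5101 genes. The lists were chosen with earlier results of these data known, so the counts describe single genes. Among 14 complement genes, Cd55 was higher and C2, C4b and Clu were among the 4 lower, with a median difference of -0.32. C2 and Clu were at 5 or more in 0 Pi16-high cells and in 6 and 5 Pi16-low cells. Both passed the filter through Pi16-low cells alone, so the direction of their difference in share was fixed beforehand. C4b was at 5 or more in 3 Pi16-high and 8 Pi16-low cells, and its close copy C4a differed by -1.18. C3, the central complement component, was at 5 or more in 23 Pi16-high and 11 Pi16-low cells, with a difference of 1.04. Among 12 chemokine and cytokine genes, Il33 and Ackr3 were higher and Ccl19, a ligand that guides lymphocytes, lower, at 5 or more in 0 Pi16-high and 6 Pi16-low cells. Ccl19 passed the filter through Pi16-low cells alone, and Ackr3 through Pi16-high cells alone. The median difference was -0.28, and Ccl11, an eosinophil attractant, differed by -0.26.

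Growth factor genes and transcription factors had 0 or 1 counted member per list. Of 20 TGF-beta and BMP genes Gdf10 was lower, of 10 IGF genes Igfbp5, a binding protein, was higher, at 5 or more in 12 Pi16-high and 3 Pi16-low cells, and of 6 Wnt genes 0 were counted. The median differences of these lists were 0.05, -0.50 and -0.90 in this order. Of 15 limb mesenchyme transcription factors, Meox1 was lower, at 5 or more in 3 Pi16-high and 8 Pi16-low cells, and the median difference was 0.31. Beside the 1.04% and 0.823% of all 5101 genes, counts of this size in lists this short are no result about a list. Prrx1, whose regulatory sequence drives the Cre, was at 5 or more in 11 Pi16-high and 12 Pi16-low cells and differed by -1.01. Ly6a was at 5 or more in every cell, Cd34 differed by 1.04 and Pdgfra by -1.53, all 3 short of the size rule. Of 14 lipid handling and adipogenic genes Apoe was lower, with a median difference of -0.46, and Lpl (lipoprotein lipase) differed by -1.63. Counted were 0 of 15 annexin and S100, 9 MHC class I and interferon or 8 cell cycle and quiescence genes, with median differences of 0.40, -0.19 and -1.08.

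Immediate early and heat shock genes are known to respond to tissue digestion. Of 25 immediate early and heat shock genes that passed the filter, Egr1 was lower in Pi16-high cells, at 5 or more in 14 Pi16-high and 16 Pi16-low cells with a difference of -2.04, and 16 of 25 differences were below 0, with a median of -0.58. Over all 5101 genes, 2497 differences were below 0. Fos differed by -1.96 and Hspa8 by -0.05. Cells with Pi16 of 9 or more held a median of 11 of the 26 measured genes at 5 or more (range 7 to 18), cells with 5 to 9 held 17 (9 to 20) and Pi16-low cells 13 (6 to 20). The lowest median was in the cells with Pi16 of 9 or more, and the ranges overlapped. Egr1 had means of 4.36 in cells with Pi16 of 9 or more, 7.67 in cells with 5 to 9 and 7.59 in Pi16-low cells. Fos had means of 7.54, 11.20 and 10.82 in the same order, and Hspa8 of 9.91, 9.42 and 9.78. The part of this response in the differences between the classes was not tested.

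The differences were also taken within blocks of linked libraries. The genes were chosen for their difference over these same cells, and all 7 blocks hold both classes. A kept sign was therefore likely beforehand and is a description only. Some links crossed blocks, so matching within blocks leaves those links in place. Taken within each of the 7 blocks and averaged with weights by cell numbers, the difference kept its sign in all 53 higher and all 42 lower genes, and 40 and 31 of them remained at 2 or more in size. In 22 higher and 12 lower genes the sign was the same in every block. For Efhd1 the within-block difference was 3.03, with 1.63 to 6.45 in single blocks, and for Cd55 it was 2.99, with 1.26 to 7.82. Both upper values came from block 6, which holds 1 cell of each class. Sema3c had a within-block difference of 2.86, yet was lower in Pi16-high cells by -1.93 in block 4, which holds 1 Pi16-low cell. For Penk the within-block difference was -3.34 and for Srpx -3.61, with the negative sign in all 7 blocks. Over all genes the rule within blocks counted 50 higher and 38 lower, of which 37 and 31 were shared with the comparison over all cells.

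**Figure D5:**
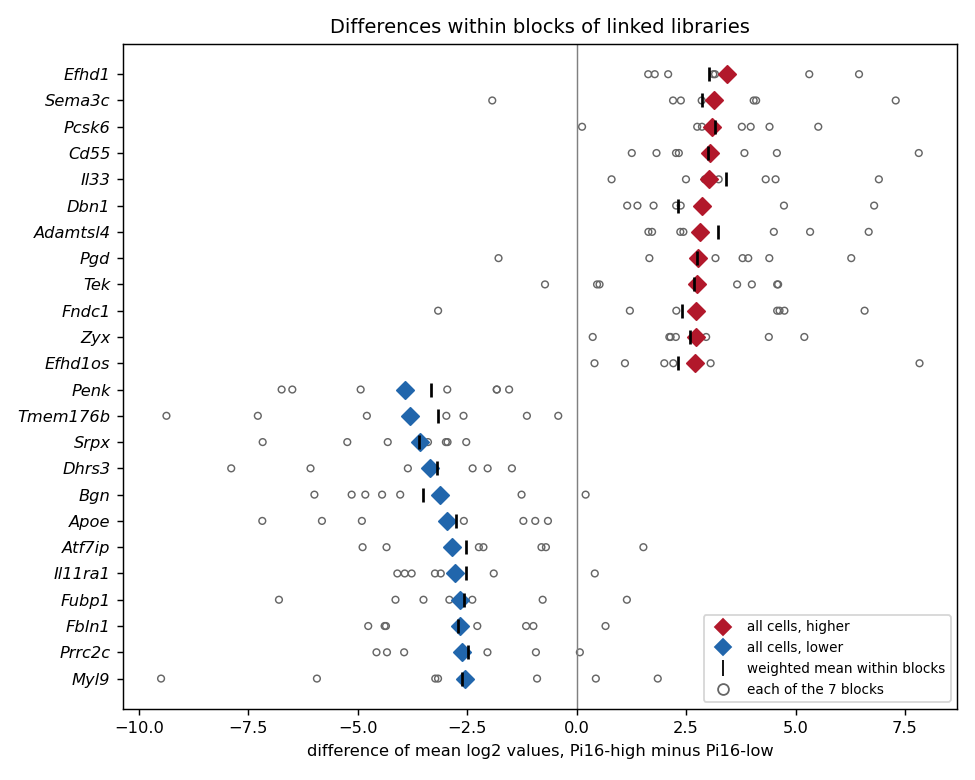
Difference of mean log2 values, Pi16-high minus Pi16-low (x axis), for the 12 genes with the largest positive and the 12 with the largest negative difference (y axis): diamonds for all 44 cells, black ticks for the weighted mean within blocks and open circles for each of the 7 blocks of linked libraries. The ticks lie on the same side of 0 as the diamonds for all 24 genes, while single blocks scatter widely and cross 0 for some genes, Sema3c and Myl9 among them.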

How the data were processed

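RNA of 44 single cells was sequenced from Nextera XT libraries, per the labels' protocols. The authors deposited 1 table of log2 values whose name gives FPKM. GRCm38, TopHat2 and Cufflinks are named in the submitters' processing notes. Base 2 and the added 1 were inferred, not stated: read so, FPKM totals 579623 to 579912 in a cell. The sources used here do not say how the values came so close to 1 distribution, and depth is unknown.

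Gene IDs matched the reference in 12711 of 12745 rows, 18 symbols written as dates were restored and repeated symbols were represented by their highest row on average, leaving 12707. Pi16 classes, differences of means, shares and counts were computed in Python 3.11.15 with pandas 2.3.3. Blocks of linked libraries came from Spearman correlations on alternate rows, average linkage (SciPy 1.17.1) and Otsu's threshold. The comparison step was tested on simulated data with less spread than these cells, planted differences larger than the size rule and no share rule. That test checks the calculation and not the rule used here. Members of a class are cells of 1 sample, so no p-value was computed.

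The members, the 28 gene lists and the size rule were chosen with earlier results of these data known. Of 482 list genes, 32 are not analysed here, and 1 counted gene is not reported here. Named are the 12 genes with the largest difference each way that pass the rule (without predicted genes, small RNAs and ribosomal proteins), up to 4 counted and 2 abundant members per list, and 16 chosen genes. The genes past the size rule alone, Uchl1, Gfpt2, Col1a2, C4a, Cd55b and Tmem176a were named after their values were seen. Coordinates are from GENCODE for GRCm38.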

Additional observations from a re-analysis of the deposited data

How the results depend on the processing

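Counts of genes depended on the rule and on the cells kept. With values under 5 set to 5 there were 0 higher and 5 lower genes, with log2 of FPKM + 0.1 there were 82 and 70, with a size rule of 1.5 there were 104 and 94, with 3 there were 5 and 5, and with 40 percentage points in share 12 and 10. More genes were counted without cells with other markers, where the number and the kind of cells changed together. There were 107 and 118 without cells with mural or tenocyte markers, 88 and 87 without cells with myofibre markers, and 175 and 200 without any of these. Of the 53 higher genes 41, 44 and 40 were kept, and of the 42 lower 29, 28 and 26. Leaving out cells with Pi16 between 3 and 7 left 2 Pi16-low cells and gave 346 and 409. Between 4 and 6 it gave 95 and 103. A Pi16 threshold of 4 gave 76 lower genes, and the difference of medians 79. Leaving out block 2, 5 or 7 gave 72, 66 and 69 lower genes. Over the 7 blocks left out in turn the counts were 50 to 79 higher and 42 to 72 lower, and 23 higher and 12 lower genes were counted each time. The remaining settings stayed within 1.5 times of the main counts, which compares numbers and not genes. With a Pi16 threshold of 4, 44 genes were higher, of which 17 were among the 53. Of the 42 lower genes, 21 were kept at that threshold. The differences of the 24 genes with the largest size gave 456 values under the alternatives. Of these, 46 moved by over 1.5 times and 37 were under 2 in size. With values under 5 set to 5, Pcsk6 had 0.84 and Tek 0.83. With a Pi16 threshold of 4, Sema3c had 1.86, Dbn1 1.82, Pgd 1.503, Atf7ip -0.63 and Myl9 -0.98. Pgd had 1.12 without Pi16 values between 3 and 7. Fbln1 reached -5.25 with medians. Myl9, itself a mural marker used to choose the cells left out, turned to 0.12 without cells with other markers.

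With values under 5 set to 5, the counted members were 0 in the Dpp4 and Pi16-type, fibroblast, elastic fibre, basement membrane, protease, complement, chemokine, TGF-beta and BMP, IGF, transcription factor, adhesion, immediate early and mural lists, and 2, 1 and 1 lower genes remained in the Cxcl14 and Apod-type, proteoglycan and lipid lists. The 2 settings that leave out Pi16 values between 4 and 6, or all cells with other markers together, were chosen after seeing the data. No paired analysis was possible because the labels give 1 group and no replicate numbers that could pair its cells, and the blocks of linked libraries were matched instead, as described above. Unknown depth and the shared low values limit what any value under 5 can show.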
